A study of Mus musculus with 11 samples.

Results

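The tight junction genes *Cldn9*, *Cldn14*, *Marveld2*, *Ildr1*, *Lsr*, *Ocln* and *Tjp1* were followed by gene symbol through the expression table of the cochlea, where they are 7 of 18667 genes. They were chosen by symbol for their role in the junctions of the inner ear, with earlier results of these data known. RNA-Seq was performed on whole cochleae of mice at 2 months of age, with 1 library per cochlea, from 5 *Atf6*+/+ and 6 *Atf6*-/- cochleae. ATF6 protein is absent from the *Atf6*-/- mice, whose *Atf6* gene is cut short by a stop codon in the germ line and not in a chosen cell type. The controls were littermates, and mice of either sex were used. Both genotypes were on the C57BL/6J background, which carries the *Cdh23*ahl allele of early age-related hearing loss, and no treatment is named in the labels.

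Expression was given as FPKM, a count of fragments scaled to the length of a gene's exons and to the mapped reads of its library, so that levels can be compared between genes. Read counts were not used here, and the counting error of each value is unknown. The *Atf6* transcript (NCBI gene 226641) checked the genotype labels. It was at 8.25 to 10.56 FPKM in the *Atf6*+/+ libraries and at 3.83 to 4.59 FPKM in the *Atf6*-/- libraries, without overlap (log2 fold change -1.13, SE 0.0837, limma adjusted p = 5.17e-05).

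Tight junctions seal the space between neighboring epithelial cells. In the cochlea they hold the potassium-rich endolymph apart from the perilymph, and so preserve the voltage that drives transduction in hair cells. Claudins are membrane proteins that form the strands where 2 cells meet. Where 3 cells meet, tricellulin (encoded by *Marveld2*) is recruited by angulins, among them ILDR1 and LSR. Occludin (*Ocln*) is a relative of tricellulin in the strands, and ZO-1 (*Tjp1*) is the scaffold that ties the membrane proteins to actin. Mutations in *CLDN9*, *CLDN14*, *MARVELD2* and *ILDR1* cause recessive deafness in people.

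The sequences upstream of the annotated starts are shown for *Cldn14*, *Ildr1* and *Marveld2*, the genes on which the results below turn. RefSeq windows on GRCm38.p6 existed for 6 of the 7 genes, with 10 start sites in all, and *Cldn9* had none in the table used. GRCm38.p6 is an older build than the GRCm39 of the expression values, and the windows were matched by symbol. Each sequence below is the 250 bases before the first listed start, written in the direction of transcription. Capitals mark matches, on either strand, to the CCAAT box, the TATA box TATAAA and the GC box GGGCGG, 3 motifs added after the expression values were seen.
Cldn14, chr16:94008838-94009087, minus strand: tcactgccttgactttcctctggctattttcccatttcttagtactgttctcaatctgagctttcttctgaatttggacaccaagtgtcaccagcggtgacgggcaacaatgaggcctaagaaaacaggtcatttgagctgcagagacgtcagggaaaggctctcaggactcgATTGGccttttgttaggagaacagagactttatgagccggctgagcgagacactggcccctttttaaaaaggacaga
Ildr1, chr16:36693728-36693977, plus strand: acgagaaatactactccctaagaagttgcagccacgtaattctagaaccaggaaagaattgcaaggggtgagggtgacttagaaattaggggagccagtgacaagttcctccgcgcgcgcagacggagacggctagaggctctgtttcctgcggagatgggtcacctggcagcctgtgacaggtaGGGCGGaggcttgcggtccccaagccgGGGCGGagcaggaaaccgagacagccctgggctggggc
Marveld2, chr13:100616972-100617221, minus strand: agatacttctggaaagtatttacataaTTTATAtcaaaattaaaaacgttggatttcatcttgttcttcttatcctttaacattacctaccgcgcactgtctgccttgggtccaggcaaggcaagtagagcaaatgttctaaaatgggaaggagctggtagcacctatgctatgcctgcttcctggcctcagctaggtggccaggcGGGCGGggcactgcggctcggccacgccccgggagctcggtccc

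The *Cldn14* window holds a reversed CCAAT box and no GC box, the *Ildr1* window holds GC boxes, and the *Marveld2* window holds a reversed TATA box and a GC box. Their G and C content was 47.6%, 59.2% and 50.4%. Over windows of 300 bases that also take in 50 bases after the start, the GC box was in 7 of the 10 member windows and 5 genes, against 35.7% of all 32851 windows. The CCAAT box was in 4 windows of 2 genes, against 37.4%, and the TATA box in 2 windows of 1 gene, against 13.6%. The ER stress response element, bound by ATF6 with NF-Y, is CCAAT followed after 9 bases by CCACG. It was in 0 of the 10 windows and in 0.119% of all windows. Element II, which is ATTGG followed after 1 base by CCACG, was in 0 of 10 and 0.0365%. The ATF6 site TGACGTGG was in 0 of 10 and 0.676%. The ER stress response element begins with the CCAAT box, so those 2 searches overlap. Windows of 1 gene can overlap. Both *Marveld2* windows hold the same GC box and the same TATA box, and a CCAAT box is shared by a pair of *Cldn14* windows, so window counts are not counts of separate sequences. These counts say only that the letters were or were not in the windows.

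All 7 genes passed the expression filter, 0.1 FPKM or more on average in the 11 libraries. The study's rule was a DESeq2 p no higher than 0.05 and a fold change above 0.05. It was read here as an unadjusted limma p no higher than 0.05 and a log2 fold change of more than 0.05 in size. By this rule *Cldn9*, *Cldn14* and *Ildr1* were higher in *Atf6*-/- cochleae and none was lower. By the same rule 9.85% of the 16169 genes tested differed, 4.48% being higher and 5.37% lower. None of the 7 genes passed at a limma adjusted p under 0.05, as 0.068% of all genes did. None had genotypes that did not overlap, which 1.25% of all genes had. All 7 log2 fold changes were above 0, against 45.3% of all genes, but that of *Marveld2* was 0.0017 and turned to -0.011 with a pseudocount of 1 FPKM. Their median was 0.14, against -0.013 over all genes. Fold changes are on the scale of log2(FPKM + 0.1).

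**Figure D1:**
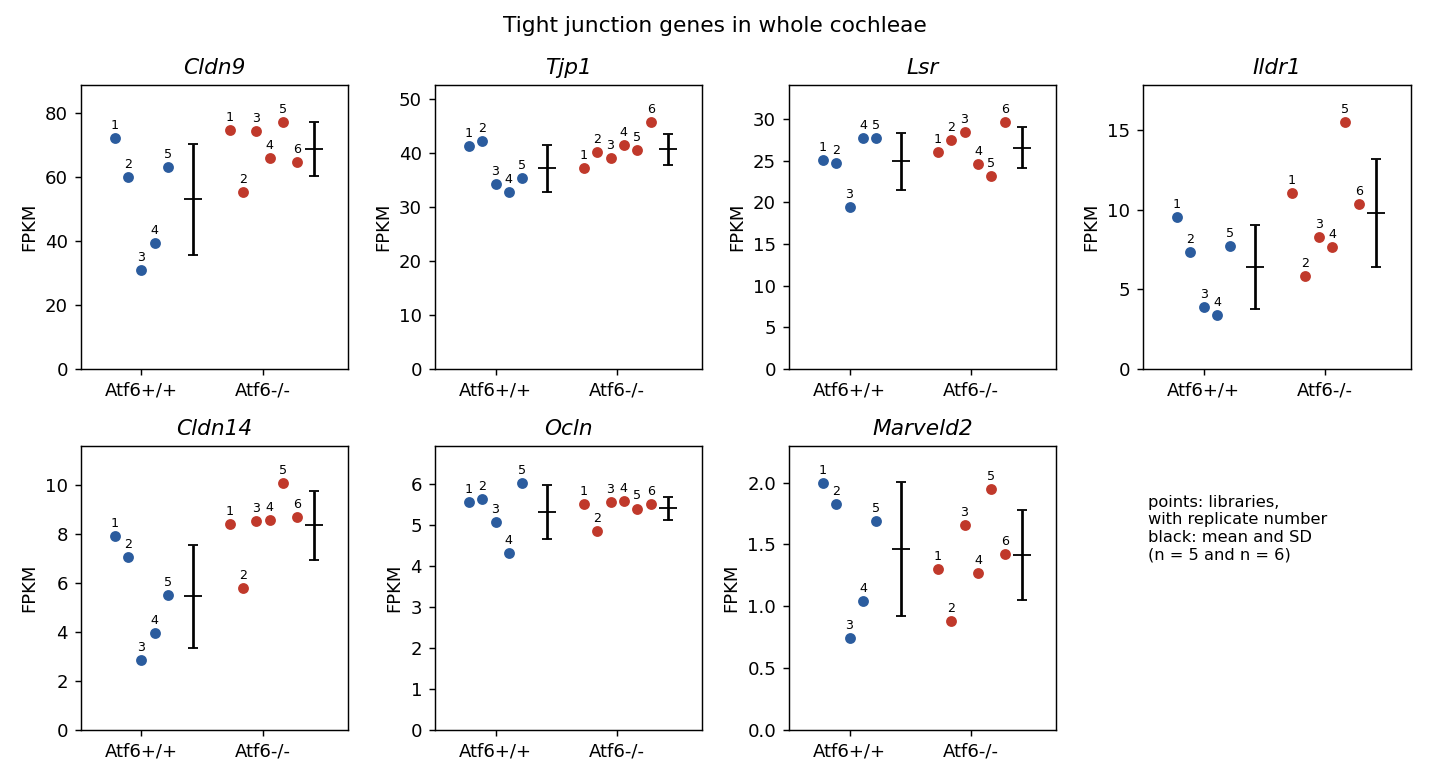
FPKM of the 7 genes in each library, with 1 panel per gene, the 5 *Atf6*+/+ libraries at the left, the 6 *Atf6*-/- libraries at the right, and the mean and SD of each genotype beside the points. The genotypes overlap in every panel, and *Cldn14* comes closest to separation, with 5 of 6 *Atf6*-/- libraries above the highest *Atf6*+/+ library.

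*Cldn14* (NCBI gene 56173), a claudin of the hair cell and supporting cell junctions, was at 7.90, 7.04, 2.84, 3.95 and 5.51 FPKM in *Atf6*+/+ replicates 1 to 5. In the *Atf6*-/- libraries it ranged from 5.78 to 10.08 FPKM, with a median of 8.54. Only *Atf6*-/- replicate 2 lay inside the *Atf6*+/+ range, and *Atf6*+/+ replicates 3, 4 and 5 lay below every *Atf6*-/- library. The means were 5.45 ± 2.10 FPKM (SD, n = 5) and 8.34 ± 1.40 FPKM (SD, n = 6). The fitted level was 1.60-fold higher in *Atf6*-/- cochleae (95% interval 1.13 to 2.28, log2 fold change 0.68, SE 0.234). The unadjusted p was 0.0131 and the limma adjusted p was 0.415. An exact two-sided permutation test gave p = 0.0260, where 0.00216 is the smallest value that 5 against 6 libraries allow. *Cldn14* was the member whose call held with each library left out in turn, at log2 fold changes of 0.47 to 0.83.

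*Cldn9* (NCBI gene 56863), another claudin of the sensory epithelium, was the most abundant of the 7 genes. Its levels were 72.34, 59.92, 30.82, 39.26 and 63.13 FPKM in *Atf6*+/+ replicates 1 to 5, and 55.24 to 77.27 FPKM, with a median of 70.2, in the *Atf6*-/- libraries. *Atf6*+/+ replicates 3 and 4 were low, while the other *Atf6*+/+ libraries fell within the *Atf6*-/- range. The means were 53.1 ± 17.4 FPKM (SD, n = 5) and 68.8 ± 8.35 FPKM (SD, n = 6). The log2 fold change was 0.43 (95% interval 0.010 to 0.86), with an unadjusted p of 0.0454 and a limma adjusted p of 0.505. The exact permutation p was 0.0844. The call was lost in 7 of the 11 fits that left out 1 library, those without *Atf6*+/+ replicate 3 (log2 fold change 0.25) or 4 or *Atf6*-/- replicate 1, 3, 4, 5 or 6.

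*Ildr1* (NCBI gene 106347), which encodes an angulin, had the widest spread within genotypes relative to its mean. Its SD was 41.4% of the mean in *Atf6*+/+ and 34.5% in *Atf6*-/- libraries. It was at 9.53, 7.36, 3.88, 3.39 and 7.71 FPKM in *Atf6*+/+ replicates 1 to 5, and at 5.85 to 15.51 FPKM, with a median of 9.32, in the *Atf6*-/- libraries. *Atf6*+/+ replicates 3 and 4 were again the low libraries, and 3 of 6 *Atf6*-/- libraries exceeded the highest *Atf6*+/+ library. The means were 6.37 ± 2.64 FPKM (SD, n = 5) and 9.79 ± 3.37 FPKM (SD, n = 6). The log2 fold change was 0.65 (95% interval 0.013 to 1.29), with an unadjusted p of 0.0462 and a limma adjusted p of 0.505. The exact permutation p was 0.0974, and the call was lost in 6 of the 11 fits that left out 1 library, those without *Atf6*+/+ replicate 3 or 4 or *Atf6*-/- replicate 1, 3, 5 or 6.

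*Marveld2* (NCBI gene 218518), which encodes tricellulin, was the least abundant of the 7 genes. It was at 2.00, 1.83, 0.74, 1.04 and 1.69 FPKM in *Atf6*+/+ replicates 1 to 5. The *Atf6*-/- libraries ranged from 0.88 to 1.95 FPKM, with a median of 1.36. The *Atf6*-/- libraries therefore lay wholly inside the *Atf6*+/+ range, at means of 1.46 ± 0.542 FPKM (SD, n = 5) and 1.41 ± 0.365 FPKM (SD, n = 6). The log2 fold change was 0.0017 with a 95% interval of -0.55 to 0.56, so the data leave room for a difference in either direction (limma adjusted p = 0.999).

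*Lsr* (NCBI gene 54135), which encodes the other angulin of the set, was at 25.11, 24.77, 19.40, 27.75 and 27.76 FPKM in *Atf6*+/+ replicates 1 to 5. The *Atf6*-/- libraries were at 23.14 to 29.67 FPKM with a median of 26.7. The genotypes overlapped, though *Atf6*+/+ replicate 3 lay below every *Atf6*-/- library and 2 *Atf6*-/- libraries lay above the highest *Atf6*+/+ library. The *Lsr* log2 fold change was 0.097 (95% interval -0.11 to 0.30, limma adjusted p = 0.739). *Ocln* (NCBI gene 18260) was at 5.56, 5.64, 5.06, 4.31 and 6.03 FPKM in *Atf6*+/+ libraries and at 4.86 to 5.58 FPKM, with a median of 5.50, in *Atf6*-/- libraries. The *Atf6*-/- values again sat inside the *Atf6*+/+ range (log2 fold change 0.029, 95% interval -0.16 to 0.21, limma adjusted p = 0.928). *Ocln* and *Marveld2* are neighbors among the protein-coding genes of chromosome 13.

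*Tjp1* (NCBI gene 21872), the ZO-1 gene, was at 41.17, 42.19, 34.19, 32.70 and 35.26 FPKM in *Atf6*+/+ replicates 1 to 5. It was at 37.12 to 45.67 FPKM with a median of 40.3 in the *Atf6*-/- libraries. All 6 *Atf6*-/- libraries lay above the *Atf6*+/+ median of 35.26 FPKM, but only 1 lay above the highest *Atf6*+/+ library. The log2 fold change was 0.14 (95% interval -0.028 to 0.30), with a limma adjusted p of 0.559 and an exact permutation p of 0.121. It reached the unadjusted p of 0.05 when *Atf6*+/+ replicate 1 (log2 fold change 0.17) or replicate 2 (0.18) was left out.

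**Figure D2:**
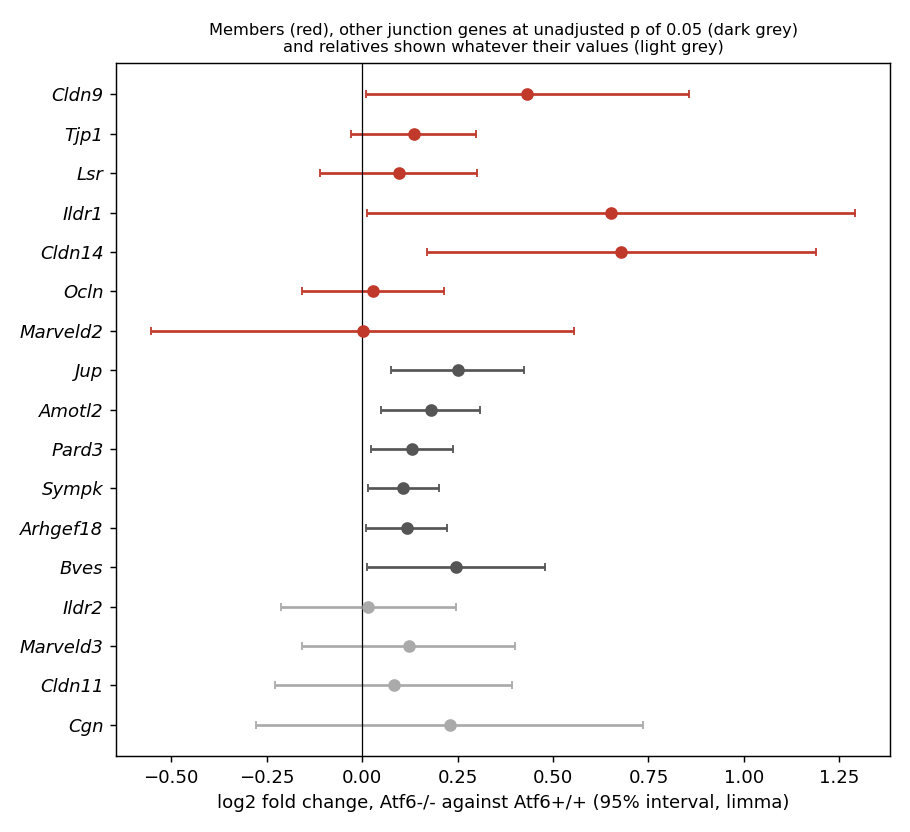
Log2 fold change (FPKM + 0.1) of *Atf6*-/- against *Atf6*+/+ cochleae on the x axis, with 95% intervals from limma, for the 7 genes (red, ordered by level), the 6 other junction genes at the unadjusted p of 0.05 (dark grey) and 4 named relatives (light grey). *Cldn14*, *Ildr1* and *Cldn9* have the highest values of the red points, and the interval of *Marveld2* runs from -0.55 to 0.56 around 0.0017.

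Over all 11 libraries, mean FPKM ran in the order *Cldn9* 61.6, *Tjp1* 39.0, *Lsr* 25.8, *Ildr1* 8.24, *Cldn14* 7.03, *Ocln* 5.36 and *Marveld2* 1.43. *Cldn9* exceeded *Tjp1* in 10 of 11 libraries. *Tjp1* exceeded *Lsr*, *Lsr* exceeded *Ildr1*, and *Ocln* exceeded *Marveld2* in 11 of 11. *Ildr1* was above *Cldn14* in 8 of 11 libraries and *Cldn14* above *Ocln* in 8 of 11, so these neighbors in the order were not apart in every library. The libraries with *Cldn14* below *Ocln* were *Atf6*+/+ replicates 3, 4 and 5. In *Atf6*+/+ libraries the 2 genes had means of 5.45 and 5.32 FPKM, and in *Atf6*-/- libraries 8.34 and 5.40 FPKM. Among the 22 claudins of the table, *Cldn9* had the rank 3 in mean FPKM over these libraries, after *Cldn11* (162), the claudin of strial basal cells and myelin, and *Cldn19* (66.4), a claudin of Schwann cells. By the same mean *Cldn14* had the rank 8. The order of *Cldn9* and *Cldn19* turned with genotype, at means of 53.1 and 69.7 FPKM in *Atf6*+/+ and 68.8 and 63.6 FPKM in *Atf6*-/- libraries. *Cldn6*, the protein-coding neighbor of *Cldn9* on chromosome 17, had a mean of 2.39 FPKM. Its log2 fold change was -0.053, beside 0.43 for *Cldn9*. Whether the counting could split reads between claudins is not stated in the sources used here.

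The 7 genes fell into groups of unequal spread. Within *Atf6*+/+ cochleae, the highest library exceeded the lowest 2.35-fold for *Cldn9*, 2.78-fold for *Cldn14*, 2.70-fold for *Marveld2* and 2.81-fold for *Ildr1*. For *Lsr*, *Ocln* and *Tjp1* this ratio was 1.43, 1.40 and 1.29. The 4 variable genes ordered the libraries alike. *Atf6*-/- replicate 2 was the lowest and replicate 5 the highest *Atf6*-/- library for each of them, and *Atf6*+/+ replicate 1 was the highest *Atf6*+/+ library. *Atf6*+/+ replicate 3 was the lowest for *Cldn9*, *Cldn14* and *Marveld2*, and replicate 4 for *Ildr1*.

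After the genotype means were subtracted, the log2 values of these 4 genes followed one another over the 11 libraries. The points of all genes come from the same libraries, each of them 1 whole cochlea. Pearson's r was 0.96 and Spearman's rho 0.95 for *Cldn14* with *Marveld2*. For *Cldn9* they were 0.94 and 0.87 with *Cldn14*, and 0.94 and 0.91 with *Marveld2*. *Ildr1* had an r of 0.86 with *Cldn9*, 0.86 with *Cldn14* and 0.88 with *Marveld2*. *Lsr* had no r above 0.36 with any other member. *Ocln* lay between, at 0.71 with *Cldn9* and 0.74 with *Ildr1*. So did *Tjp1*, at 0.66 with *Cldn14*, 0.54 with *Marveld2*, 0.52 with *Ildr1* and 0.49 with *Cldn9*.

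Markers of epithelial and supporting cells moved with the same libraries. The summed FPKM of 12 epithelial markers was 147 and 163 in *Atf6*+/+ replicates 3 and 4, and 242 to 263 in the other *Atf6*+/+ libraries. It was 156 in *Atf6*-/- replicate 2 and 227 to 257 in the other *Atf6*-/- libraries. All 12 had a log2 fold change above 0, 1 of them (*Esrp2*) was higher by the study's rule, and none was at 0 in any library. The sum of 14 supporting cell markers was 872 to 1620 FPKM in *Atf6*+/+ and 978 to 1729 FPKM in *Atf6*-/- libraries, lowest in the same 3 libraries. *S100b*, *Gjb2* and *Gjb6* made up most of this sum, at 510, 168 and 196 FPKM in *Atf6*-/- replicate 2. Some smaller markers were not lowest in that library. *Sox2* was at 13.63 FPKM in it and 11.47 in *Atf6*-/- replicate 5, and *Otog* at 16.72 and 10.96. The 13 hair cell markers other than *Calb2* were also lowest in these 3 libraries, at sums of 198 and 175 FPKM in *Atf6*+/+ replicates 3 and 4 and 195 FPKM in *Atf6*-/- replicate 2. The 9 outer hair cell markers summed to 105 and 107 FPKM in *Atf6*+/+ replicates 3 and 4, the lowest of all, and to 130 FPKM in *Atf6*-/- replicate 2, the lowest of its genotype. *Fgfr3* and *Jag1*, a receptor and a Notch ligand, were the 2 of 14 supporting cell markers called by the study's rule, both higher. That is 14.3%, beside 9.85% of all genes. Of the 14 log2 fold changes 13 were above 0 and 1 below 0, while the median sums were 1378 FPKM in *Atf6*+/+ and 1359 FPKM in *Atf6*-/- libraries. In bulk tissue, fewer cells of a type and less RNA per cell cannot be told apart.

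With the epithelial score, the mean log2 level of the 12 epithelial markers in each library, added to the model, *Cldn14* (log2 fold change 0.44) and *Cldn9* (0.22) were still called by the study's rule, and *Ildr1* (0.37) was not. With the supporting cell score instead, an alternative chosen after seeing the data, *Cldn14* was still called, and *Cldn9* (0.30) and *Ildr1* (0.51) were not. *Marveld2*, not called in either fit, was at -0.26 with the epithelial score and -0.15 with the supporting cell score. Without *Atf6*+/+ replicates 3 and 4, an alternative chosen after seeing the data, none of the 7 genes was higher at the unadjusted p. The log2 fold changes were then 0.28 for *Cldn14*, 0.074 for *Cldn9*, 0.19 for *Ildr1* and -0.39 for *Marveld2*. With *Atf6*-/- replicate 2 left out as well, *Cldn14* alone was called, and *Cldn9* was at 0.13 and *Ildr1* at 0.33.

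**Figure D3:**
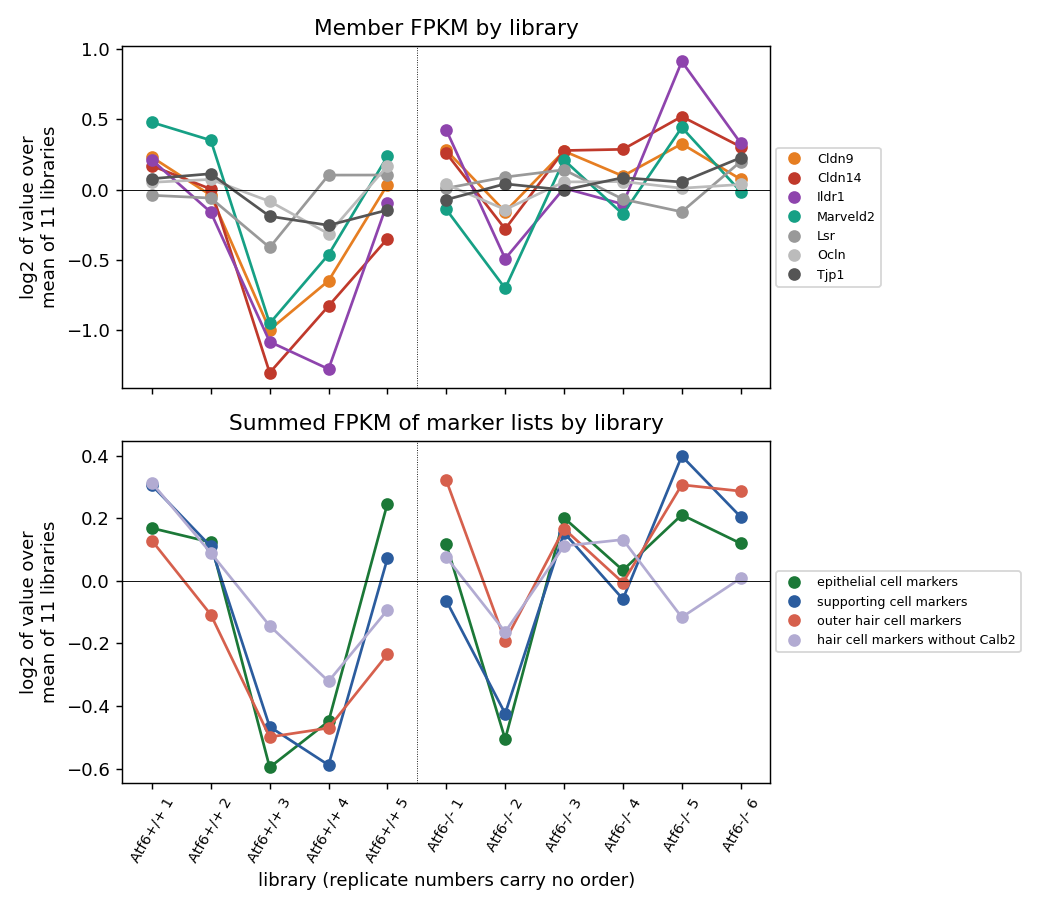
Log2 of each library's FPKM over the mean of the 11 libraries for the 7 genes (top), and the same for the summed FPKM of 4 marker lists (bottom), with libraries on the x axis in no order. *Atf6*+/+ replicates 3 and 4 and *Atf6*-/- replicate 2 dip for *Cldn9*, *Cldn14*, *Marveld2* and *Ildr1* and for the epithelial markers, whose summed level is 147 to 163 FPKM in these 3 libraries and at least 227 FPKM in the others. *Cldn14* is also low in *Atf6*+/+ replicate 5, at 5.51 FPKM, where the epithelial sum is the highest, at 263 FPKM.

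Some blood and marrow markers were lower at the unadjusted p, and none passed at a limma adjusted p under 0.05. Of 12 neutrophil markers, 8 were lower in *Atf6*-/- cochleae by the study's rule, with sums of 302 to 3593 FPKM in *Atf6*+/+ and 117 to 1322 FPKM in *Atf6*-/- libraries. Of 10 erythroid markers 8 were lower (4840 to 46410 against 2875 to 9392 FPKM), and of 10 B cell markers 3 were lower (31.9 to 57.5 against 30.6 to 40.6 FPKM). None of these markers was higher by that rule. With a bone marrow score in the model, which averages the scores of these 3 marker lists, none of the 7 genes was called, at log2 fold changes of 0.21 for *Cldn14*, 0.13 for *Ildr1*, -0.018 for *Cldn9* and -0.47 for *Marveld2*.

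*Ocm* and *Slc26a5*, which encode oncomodulin and prestin, were the 2 of 9 outer hair cell markers called higher, with sums of 105 to 162 FPKM in *Atf6*+/+ and 130 to 186 FPKM in *Atf6*-/- libraries. None of 14 hair cell markers was called, and without *Calb2*, which made up most of the sum, the remaining 13 summed to 175 to 272 and 195 to 240 FPKM. Their part in the levels of the 7 genes was not tested. Of the other lists, 0 of 12 bone markers were called, and 3 of 12 endothelial markers were higher (257 to 293 against 280 to 343 FPKM). Among the 12 endothelial log2 fold changes, 5 were above 0 and 7 below 0, with a median of -0.016. The sum leaned on *Slc2a1* and *Emcn*, both called and the highest of the 12 in level. Of 10 strial intermediate cell markers 1 was higher and of 9 strial marginal cell markers 1 was lower. *Atf6*+/+ replicate 4 was the lowest library in both lists. Its intermediate cell sum was 44.6 FPKM against 141 to 174 FPKM in the other *Atf6*+/+ libraries and 78.7 to 190 FPKM in *Atf6*-/- libraries. Its marginal cell sum was 306 FPKM, against 417 to 508 and 382 to 576 FPKM. *Dct*, a melanin synthesis gene, was at 0.84 FPKM in *Atf6*+/+ replicate 4, at 56.84 to 76.37 FPKM in the other *Atf6*+/+ libraries and at 8.35 to 80.23 FPKM in *Atf6*-/- libraries. It was also low in *Atf6*-/- replicates 1, 2 and 4, at 26.82, 13.34 and 8.35 FPKM. *Kcne1*, a potassium channel subunit of marginal cells, was at 0.10 FPKM in *Atf6*+/+ replicate 4, at 14.10 to 21.46 FPKM in the other *Atf6*+/+ libraries and at 3.39 to 22.76 FPKM in *Atf6*-/- libraries. In *Atf6*-/- replicates 1, 2 and 4 it was at 7.43, 3.39 and 5.64 FPKM. In the middle ear and airway epithelium 1 of 9 tested markers was lower, *Ltf*, which is also on the neutrophil list. The 13 listed genes summed to 89.9 to 777 FPKM in *Atf6*+/+ and 53.0 to 792 FPKM in *Atf6*-/- libraries. The 8 epidermis markers in the table summed to at most 7.63 FPKM in any library.

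The levels of *Cldn14* and *Marveld2* were set against each other in each library, a pair chosen after the values were seen. *Cldn14* was 3.95, 3.85, 3.84, 3.80 and 3.26 times the level of *Marveld2* in *Atf6*+/+ replicates 1 to 5. In *Atf6*-/- replicates 1 to 6 the ratio was 6.47, 6.57, 5.13, 6.75, 5.17 and 6.11. The genotypes did not overlap, at means of 3.74 ± 0.273 (SD, n = 5) and 6.03 ± 0.714 (SD, n = 6), and the low *Atf6*+/+ replicates 3 and 4 had ratios like replicates 1 and 2. This was the only pair among the 21 pairs of the 7 genes whose ratio did not overlap, so the share of 4.76% stands for 1 pair. The share was 1.29% of 92310078 pairs of genes that averaged 1 FPKM or more and were above 0 in every library. *Cldn14* and *Marveld2* also had the highest r of the 21 pairs (0.96), which keeps their ratio narrow within a genotype. The background pairs were not matched for r. Against 13587 other genes, 1.68% of the ratios of *Cldn14* did not overlap and 0.169% of those of *Marveld2*. The ratio of *Ildr1* to *Marveld2* overlapped, at 3.26 to 5.24 in *Atf6*+/+ and 4.99 to 8.50 in *Atf6*-/- libraries. A ratio does not show which of 2 genes differs, and the ratio of *Cldn14* to *Marveld2*, picked after its values were seen, was not tested.

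**Figure D4:**
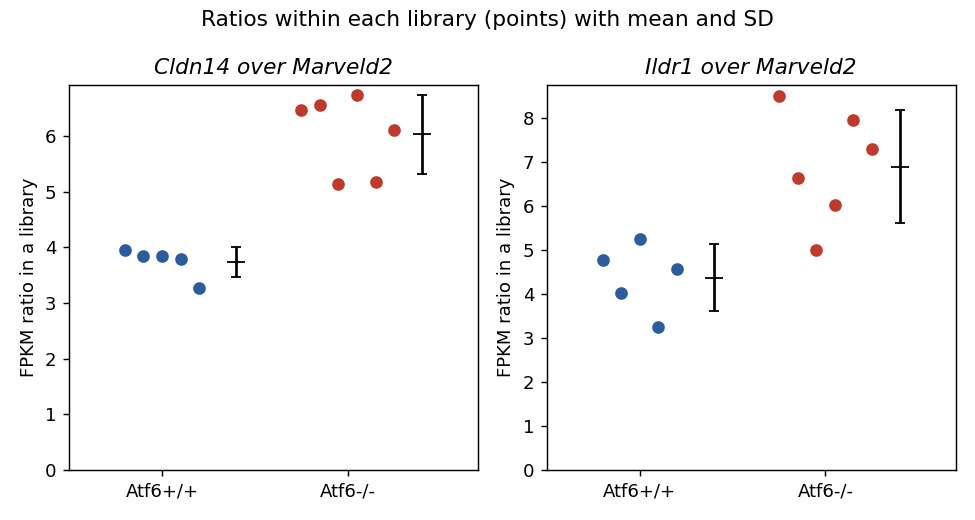
FPKM of *Cldn14* (left) and *Ildr1* (right) divided by that of *Marveld2* in the same library, with a point per library and the mean and SD of each genotype. The *Cldn14* ratio lies between 3.26 and 3.95 in *Atf6*+/+ and between 5.13 and 6.75 in *Atf6*-/- libraries.

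The genes whose levels most resembled each of the 7 were found by Pearson's r within genotypes over the 11 libraries, among 13610 other genes. They are given without a test, having been taken as the highest. For *Cldn9* they were *Esrp1*, an epithelial splicing regulator (r = 0.98), *Bhlhe41* (0.97) and *Ctf1* (0.97). For *Cldn14* they were *Cblc* (0.98), *Col9a2*, a chain of type IX collagen (0.98), and *Acp7* (0.97). For *Marveld2* they were *Ppp1r1a* (0.98), *Slc2a10* (0.98) and *Vangl1*, a planar cell polarity protein (0.98). *Ildr1* most resembled *Pgm5* (0.99), the proteoglycan gene *Epyc* (0.98) and *Padi2* (0.98). For *Lsr* the nearest were the matrix gene *Thbs2* (0.96), *Cpz* (0.95) and *Trabd2b* (0.92), and for *Tjp1* the signaling gene *Smad4* (0.92), *Pggt1b* (0.92) and *Sos2* (0.91). *Ocln* was nearest to *Serp1* (0.94), *Hyal1* (0.93) and *Syap1* (0.93), but for *Serp1* r was 0.68 when the 2 libraries farthest from the median were left out.

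Log2 fold changes of the other junction genes ran from -0.82 (*Cldn13*) to 0.37 (*Llgl2*), 2 genes that were picked out after their values were seen and neither of which was called. Of 79 other junction genes in the table, 75 were tested, with 53 log2 fold changes above 0, 22 below 0 and a median of 0.048. That median ranged from 0.016 to 0.074 with 1 library left out in turn. It was -0.041 with the bone marrow score, -0.012 with the epithelial score and -0.028 without *Atf6*+/+ replicates 3 and 4. The cause of this turn was not tested. By the study's rule 6 were higher and 0 lower, or 8% of the 75, beside 9.85% of all genes, and none passed at a limma adjusted p under 0.05. Called higher were 3 of 17 junction scaffolds, 1 of 11 MARVEL, angulin and JAM membrane proteins, 1 of 17 polarity proteins, 1 of 14 adherens junction genes and 0 of 16 other claudins.

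*Jup*, which encodes plakoglobin, was at 47.2 ± 5.98 FPKM (SD, n = 5) with *Atf6* intact and at 55.8 ± 2.98 FPKM (SD, n = 6) without it, a difference of 0.25 in log2 that did not pass adjustment (limma adjusted p = 0.400). The scaffold genes *Amotl2* (log2 fold change 0.18), *Sympk* (0.11) and *Arhgef18* (0.12) were higher by the study's rule, as were the polarity gene *Pard3* (0.13) and *Bves* (0.25). *Jup*, *Amotl2* and *Pard3* kept the call with each library left out in turn, and *Jup* was lowest, at 0.16, without *Atf6*+/+ replicate 3. *Sympk* kept it in 8 of 11 such fits, losing it without *Atf6*+/+ replicate 1 or *Atf6*-/- replicate 2 or 4. *Bves* kept it in 5 of 11, losing it without *Atf6*+/+ replicate 2 or 5 or *Atf6*-/- replicate 2, 3, 4 or 5. *Arhgef18* kept it in 4 of 11, those without *Atf6*+/+ replicate 2 or 5 or *Atf6*-/- replicate 3 or 5.

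*Ildr2*, *Marveld3*, *Cldn11* and *Cgn*, which are related to the 7 genes in sequence or place, were not called. *Ildr2*, which encodes the remaining angulin, had means of 7.48 FPKM in *Atf6*+/+ and 7.55 FPKM in *Atf6*-/- libraries (log2 fold change 0.016). *Marveld3* had 4.67 and 5.06 FPKM (0.12). *Cldn11* had 158 and 165 FPKM (0.083), and the cingulin gene *Cgn* had 5.88 and 6.61 FPKM (0.23). The split of calls over all genes moved with the scaling. Of the genes called, 45.5% were higher as deposited and 76.0% were higher after rescaling every library to a common FPKM sum, as in TPM, and the junction genes called higher then numbered 12. *Cldn9*, *Cldn14* and *Ildr1* were called under both scalings.

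**Figure D5:**
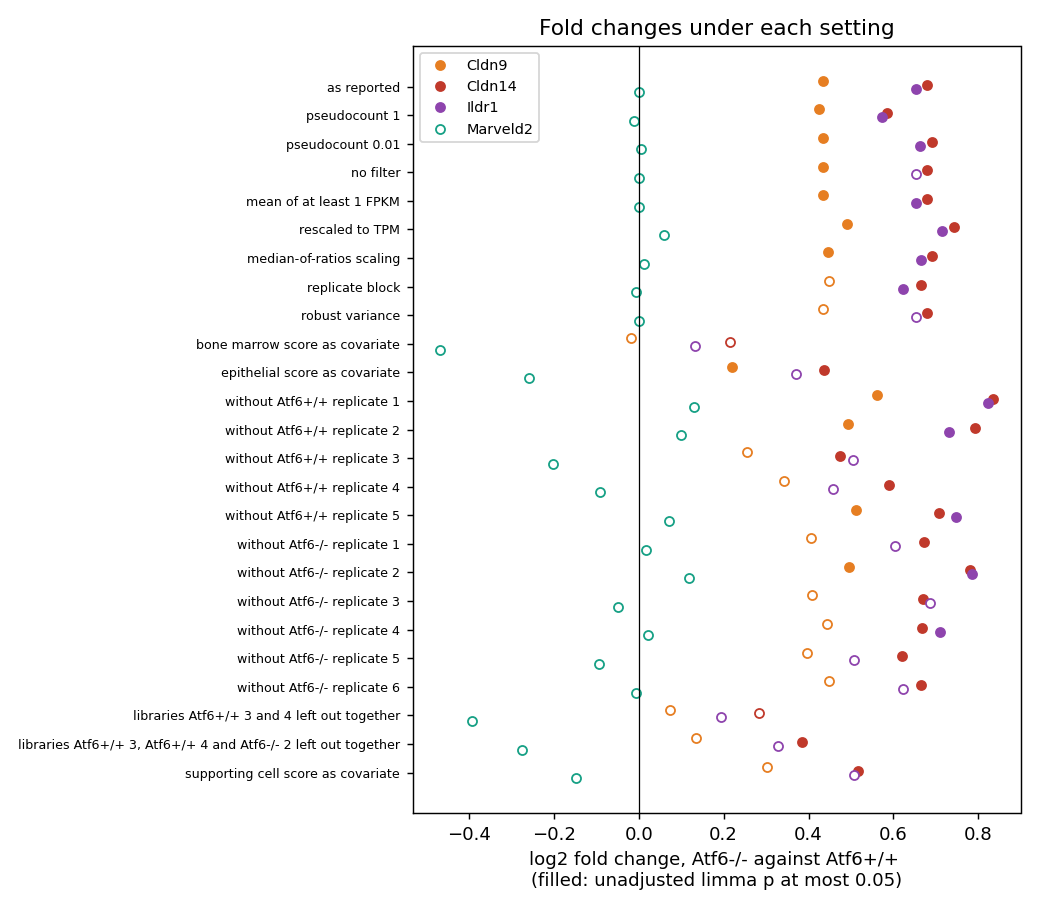
Log2 fold change of *Cldn9*, *Cldn14*, *Ildr1* and *Marveld2* on the x axis under each way of processing listed on the y axis, with filled points where the unadjusted limma p is at most 0.05. *Cldn14* stays above 0 throughout, from 0.21 with the bone marrow score, while *Cldn9* is at -0.018 with that score.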

How the data were processed

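RNA of 5 *Atf6*+/+ and 6 *Atf6*-/- whole cochleae was sequenced from stranded mRNA libraries on the DNBSEQ platform. Reads were aligned by the authors to GRCm39 with HISAT2 2.0.4, and FPKM values, deposited with 2 decimals, were computed by the authors with RSEM (1.2.12 in the submitters' processing notes, which also name DESeq2 1.4.5, while the study's methods name another RSEM version). Whether the counting used strand is not given in the sources used here. The depth of each library is unknown from FPKM, and FPKM sums were 462005 to 537926.

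FPKM + 0.1 was log2-transformed, genes averaging 0.1 FPKM or more were kept, and limma 3.58.1 (in R 4.3.3) was run with genotype as the sole term and trend = TRUE. Its two-sided p-values were adjusted by Benjamini-Hochberg for the 16169 genes. The study's rule, as read here (unadjusted p no higher than 0.05, log2 fold change of more than 0.05 in size), was applied to these p-values. Single genes were also compared by exact two-sided permutation tests. Scripts were tested on simulated data. Promoters were searched and figures drawn with Python 3.11.15, numpy 2.4.6 and matplotlib 3.10.9.

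The members, the 5 junction lists and the 13 marker lists were chosen with earlier results of these data known. Named genes were the members, *Atf6*, the junction genes with the smallest p among those called (up to 10), *Ildr2*, *Marveld3*, *Cldn11* and *Cgn*, the 3 genes most like each member, and defining markers, and 1 further gene of the rule is not reported here. *Cldn6* and *Cldn19* were added after their values were seen. The study's methods state that each group held several animals of both sexes, but not whether every cochlea came from its own mouse, so p-values measure the spread between libraries. Alternatives were another pseudocount, filter, scaling, variance model, replicate block, marker scores as covariates and libraries left out.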

Additional observations from a re-analysis of the deposited data

Results flagged for a closer look

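In 3 of the 38 groups of values examined, 1 library lay far from the others of its genotype, and chance gives about 1 in 20. *Ocln* was at 4.86 FPKM in *Atf6*-/- replicate 2, where the next library was at 5.40 and the highest at 5.58 FPKM. *Cgn* was at 4.29 FPKM in the same library, with the next at 6.58 and the highest at 7.83 FPKM. *Jup* was at 36.78 FPKM in *Atf6*+/+ replicate 3, with the next at 48.44 and the highest at 51.67 FPKM. *Atf6*-/- replicate 2 and *Atf6*+/+ replicate 3 were also low in the epithelial markers, at sums of 156 and 147 FPKM, and the part of this in the 3 values was not tested.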

How the results depend on the processing

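Values here are log2 fold changes unless called counts. *Lsr* and *Tjp1* kept their direction under every alternative run, as did *Cldn14* and *Ildr1*. With 1 library left out in turn, *Cldn9* ranged from 0.25 to 0.56, *Cldn14* from 0.47 to 0.83, *Ildr1* from 0.46 to 0.82, *Marveld2* from -0.20 to 0.13, *Ocln* from -0.043 to 0.076, *Lsr* from 0.0090 to 0.14 and *Tjp1* from 0.092 to 0.18. The number of the 7 genes called higher ranged from 1 to 4, and was 1 without *Atf6*+/+ replicate 3 or 4 or *Atf6*-/- replicate 1, 3, 5 or 6. Junction genes called ranged from 3 (without *Atf6*-/- replicate 4) to 9 higher and from 0 to 3 lower (3 without *Atf6*+/+ replicate 3 or 4), all genes called from 1197 to 1865, and those at the adjusted p from 8 to 13. *Marveld2* was at -0.011 with a pseudocount of 1, where 1 junction gene was lower. *Ildr1* was at 0.65 and no longer called without the filter, and 12 junction genes were higher after rescaling to TPM. With the variance model made robust, *Cldn9* (0.43) and *Ildr1* (0.65) lost the call, leaving 1 gene. With the replicate block, which drops *Atf6*-/- replicate 6 for want of a partner, *Cldn9* was at 0.45, no longer called, and *Marveld2* at -0.0070, 2 junction genes were higher, and 4 genes passed the adjusted p. The replicate numbers are not known to pair libraries, since same-numbered libraries correlated at -0.21 to 0.12 and 1 of 5 numbers correlated best with itself. With the bone marrow score, *Cldn9* was at -0.018, *Cldn14* 0.21, *Ildr1* 0.13, *Marveld2* -0.47 and *Ocln* -0.057, with 0 of the 7 genes higher, 1 junction gene lower, and 862 genes called, 6 at the adjusted p. With the epithelial score, *Ildr1* was at 0.37, *Marveld2* at -0.26 and *Ocln* at -0.037, and 2 junction genes were lower. The alternatives that follow were chosen after seeing the data. Without *Atf6*+/+ replicates 3 and 4, *Cldn9* was at 0.074, *Cldn14* 0.28, *Ildr1* 0.19, *Marveld2* -0.39 and *Ocln* -0.088, with 0 of the 7 higher, 3 junction genes lower and 1001 genes called. Without *Atf6*-/- replicate 2 as well, *Cldn9* was at 0.13, *Ildr1* 0.33, *Marveld2* -0.27 and *Ocln* -0.058, with 1 of the 7 higher and 1 junction gene lower. With the supporting cell score, *Cldn9* was at 0.30, *Ildr1* 0.51, *Marveld2* -0.15 and *Ocln* -0.014, with 1 of the 7 higher and 1 junction gene lower. The cause of these changes was not tested. FPKM without counts limits what can be said of *Marveld2*, whose values of 0.74 to 2.00 FPKM carry an unknown counting error.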
